A study of Mus musculus with 14 samples.

Results

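Protein arginine methyltransferases transfer methyl groups from S-adenosylmethionine to arginine side chains, and 7 of their genes were followed here in mouse embryonic stem cells (mESCs): *Prmt1*, *Prmt2*, *Prmt3*, *Carm1*, *Prmt5*, *Prmt6* and *Prmt7*. They were chosen by name, and each was found once among the 52459 genes of both count tables. All 7 were among the 11869 genes with a mean level of at least 1 FPKM (fragments per exon length and library total, computed from the counts) at 0 h, which were the genes compared throughout. *Prmt2* and *Prmt3* carried no m6A peak, and each of the others carried one on an exon in at least 1 genotype.

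The study concerns METTL14, the subunit of the m6A writer complex that holds the RNA, and its arginine R255, which PRMT1 methylates. It compared wild-type (WT) E14Tg2a mESCs with a METTL14 R255K line. In that line CRISPR-Cas9 editing of the endogenous gene put a lysine in place of the arginine. Edited cells were isolated as single colonies, and the number of clones behind these libraries is not stated. Differences between clones thus cannot be told apart from the substitution here. The paper says that its key experiments were repeated in a further cell line or clone. WT and R255K cells were both kept on gelatin in serum with LIF. For m6A, fragmented total RNA was pulled down with an m6A antibody, with 2 IP and 2 input libraries per genotype and 1 deposited peak list per genotype. For RNA decay, cells of both genotypes were taken at 0 h or after 4 or 8 h in 5 µg/ml actinomycin D, which blocks transcription, with 1 polyA RNA library per genotype and time.

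Enzymes of this family are grouped by the mark they leave. PRMT1, PRMT2, PRMT3, CARM1 and PRMT6 form asymmetric dimethylarginine (type I), PRMT5 forms symmetric dimethylarginine in a complex with WDR77 (type II), and PRMT7 forms monomethylarginine only (type III). PRMT1 carries out most asymmetric dimethylation in mammalian cells, and PRMT5 is needed for pluripotent cells of the early mouse embryo. m6A is deposited mostly around stop codons and in long exons, at a short motif that often reads GGAC, and many m6A-bearing transcripts are short-lived.

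The sites below show the GGAC nearest the summit of each peak that had its summit within a member, since the peaks are the only m6A readout of these genes. Each is 28 bases of the transcript strand, 5′ to 3′, from the RefSeq GRCm38.p6 (mm10) genome, with the motif in capitals. A motif is a description of the letters, and it is not known to be the methylated site.
Prmt6, WT peak, coding sequence, chr3:110249907-110249934, minus strand: gctgccctccccGGACaacccccggcgt
Prmt6, first R255K peak, coding sequence and stop codon, chr3:110249826-110249853, minus strand: ctttgccatggaGGACtgagcgttgcct
Prmt6, second R255K peak, coding sequence, chr3:110250835-110250862, minus strand: cacgaccccggaGGACcaagagcgagcg
Prmt5, peak of both genotypes, 3′UTR, chr14:54507606-54507633, minus strand: gtaggcattcccGGACtgccaggcatgg
Prmt7, WT peak, 3′UTR, chr8:106251906-106251933, plus strand: cagctttcattaGGACcaatgcaggact
Carm1, WT peak, 3′UTR, chr9:21588622-21588649, plus strand: gcacagccagctGGACctctccttcaac
Carm1, R255K peak, 3′UTR, chr9:21588319-21588346, plus strand: ctatgggaacttGGACaattttgtacac
Prmt1, R255K peak, intron, chr7:44986201-44986228, minus strand: cctgaactgtggGGACggggccttttga

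The 6 decay libraries held between 13812160 and 18813640 counts. *Mettl14* itself was at 5.27, 3.38 and 2.26 FPKM over the WT time course and at 2.58, 2.03 and 1.5 FPKM in R255K cells. It was lower in R255K cells at 0 h, with a log2 ratio of −0.81 (−0.96 to −0.66). With the trend on exon GC content, described below, subtracted, this ratio was −0.38. By western blot the paper found little change in METTL14 protein. Counts per gene do not show the edited codon, so they cannot check the substitution. All 8 stem cell markers were present in every library. They summed to 2970, 2638 and 2903 FPKM over the WT time course and to 2498, 2146 and 2079 FPKM in R255K cells. At 0 h *Utf1* was higher in R255K cells, at a log2 ratio of 0.61, and the others were lower, from −0.17 (*Pou5f1*) to −1.10 (*Esrrb*). The 6 fibroblast markers summed to between 1.66 and 2.21 FPKM in WT and between 5.96 and 7.19 FPKM in R255K cells, with *Lum* at 0 throughout. Most of this sum at 0 h was *Thy1*, at 1.55 FPKM in WT and 4.01 FPKM in R255K cells. *Col1a1* was at 0.0787 and 1.46 FPKM. The 3 markers of 2-cell-like cells summed to at most 0.147 FPKM in WT and to between 2.41 and 4.42 FPKM in R255K cells. Endoderm, mesoderm and ectoderm markers summed to at most 5.37, 2.02 and 16.5 FPKM. The ectoderm markers *Sox1* and *Nes* went opposite ways between the genotypes at 0 h, at log2 ratios of −2.39 and 1.38. Whether these markers reflect other cells in the cultures, and what part such cells have in the genotype ratios, was not tested. At 0 h the median log2 ratio of R255K to WT went with exon GC content, from −0.42 in the fifth of genes with the lowest GC to 0.30 in the highest. With 1 library per genotype and time there is no replicate check, and no test was made. Intervals are 95% and cover counting error only, ratios are log2(FPKM + 1) differences, and a gene is called apart at 1.5-fold (0.58 on the log2 scale). Levels are relative to the rest of the library, and fewer expressing cells cannot be told apart from less RNA per cell.

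*Prmt1* was the most abundant of the 7 in every library, and *Prmt6* and *Prmt2* the least. In WT cells at 0 h the level of *Prmt1* was 150 FPKM (147 to 153), rank 345 of the 11869 genes. *Prmt5* followed at 63.0 FPKM (61.1 to 64.9), *Prmt7* at 40.6 (39.4 to 41.9), *Carm1* at 36.7 (35.4 to 38.0), *Prmt3* at 14.2 (13.5 to 14.9), *Prmt6* at 6.04 (5.49 to 6.63) and *Prmt2* at 3.75 FPKM (3.27 to 4.28). No neighbouring intervals in this order overlapped. The order was the same in R255K cells, at 189 FPKM (185 to 193) for *Prmt1*, 84.0 (81.7 to 86.3) for *Prmt5*, 41.8 (40.5 to 43.1) for *Prmt7*, 40.3 (38.9 to 41.8) for *Carm1*, 14.1 (13.3 to 14.8) for *Prmt3*, 6.98 (6.35 to 7.65) for *Prmt6* and 5.62 FPKM (5.00 to 6.29) for *Prmt2*. There the intervals of *Prmt7* and *Carm1* overlapped, and those of the other neighbours did not.

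*Prmt1* transcripts made up 47.7% of the summed FPKM of the 7 genes in WT and 49.5% in R255K cells at 0 h. The sum itself was 314 FPKM in WT and 382 FPKM in R255K cells. *Prmt5*, the type II enzyme, held 20.1% of it in WT cells. After 8 h in actinomycin D *Prmt1* held 55.2% in WT against 49.3% in R255K cells, and *Prmt6* held 0.197% against 0.898%.

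**Figure D1:**
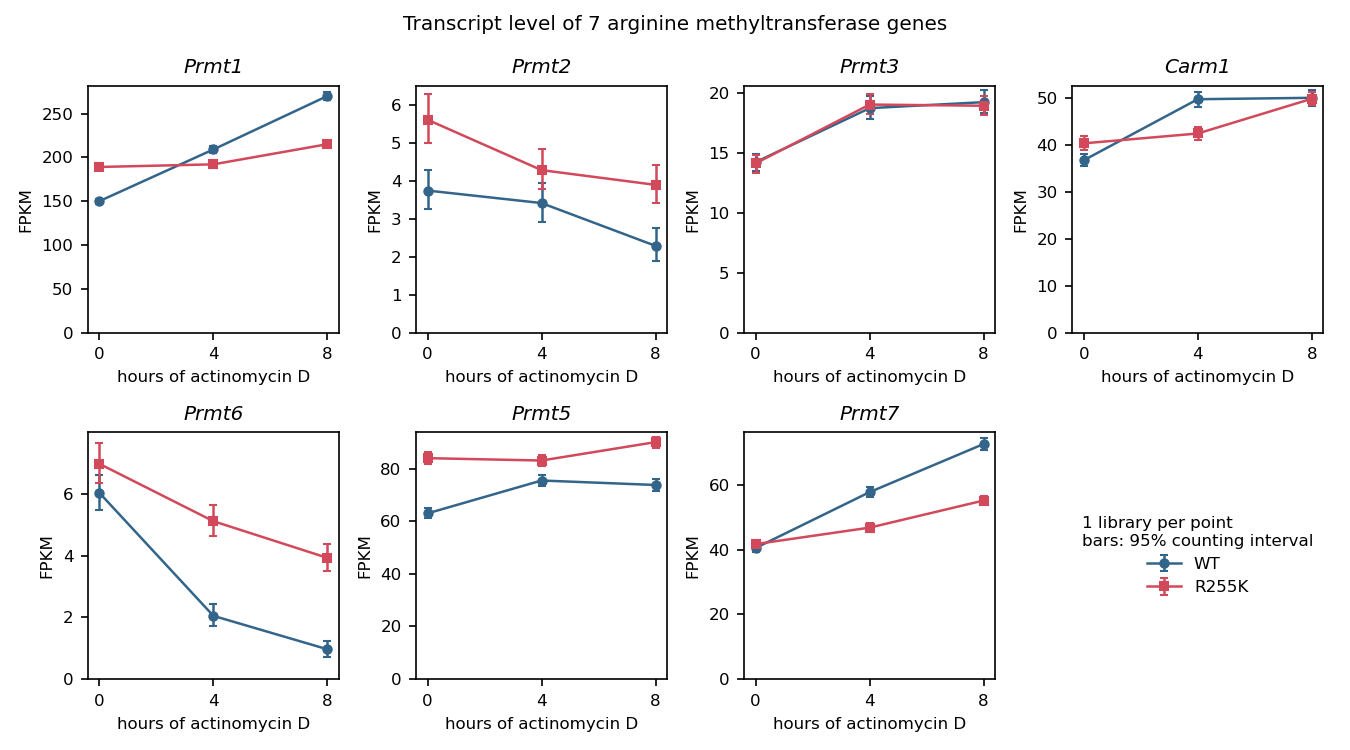
Level of each of the 7 genes in FPKM (vertical axis, from 0) against hours of actinomycin D (horizontal axis), in WT (circles) and R255K cells (squares). Each point is 1 library and bars are 95% counting intervals. *Prmt6* lies at 0.966 FPKM in WT and 3.93 FPKM in R255K cells at 8 h, and the lines of *Prmt1* cross between 0 and 4 h.

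Before actinomycin D, no member differed by 1.5-fold between the genotypes, where 17.0% of all compared genes were higher and 15.7% lower in R255K cells by that measure. The members' median log2 ratio was 0.18, against 0.05 for all compared genes. The ratio was 0.48 (0.27 to 0.68) for *Prmt2*, 0.41 (0.35 to 0.47) for *Prmt5* and 0.33 (0.29 to 0.37) for *Prmt1*. These were the largest of the 7 ratios. *Prmt6* at 0.18 (0.02 to 0.34) and *Carm1* at 0.13 (0.06 to 0.20) were close to the WT level. The intervals of *Prmt7*, 0.04 (−0.02 to 0.10), and *Prmt3*, −0.01 (−0.11 to 0.09), included 0. With the GC trend subtracted the ratio of *Prmt5* was 0.33, that of *Prmt2* 0.31 and that of *Prmt1* 0.12, while *Carm1* went to −0.10 and *Prmt7* to −0.11.

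Under actinomycin D the 7 genes parted into *Prmt6*, which fell quickly in WT cells and slowly in R255K cells, *Prmt2*, which was lower at 8 h than at 0 h in both, and 5 genes whose share of the library was higher at 8 h than at 0 h. In TPM the WT change of *Prmt5* was −0.03 instead. The WT change of *Prmt2* was −0.53, short of 1.5-fold, and it was −0.69 with a pseudocount of 0.1, −0.87 in TPM and −0.01 with DESeq2 size factors. Among all compared genes the median log2 change from 0 to 8 h was −0.47 in WT and −0.10 in R255K cells. The members' medians were 0.41 and 0.19.

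*Prmt6* encodes a mostly nuclear type I enzyme that methylates histone H3. WT libraries held 442, 129 and 56 counts of it over the time course, and R255K libraries 458, 400 and 310. Its level went from 6.04 to 2.05 and 0.966 FPKM in WT cells, and from 6.98 to 5.12 and 3.93 FPKM in R255K cells. The genotypes were close at 0 h and apart at both later times, when every R255K value lay above every WT value. The log2 change from 0 to 8 h was −1.84 in WT and −0.70 in R255K cells, a difference of 1.15 (0.87 to 1.42). The log2 ratio of R255K to WT was 1.01 (0.80 to 1.21) at 4 h and 1.33 (1.1 to 1.55) at 8 h. The WT level at 8 h lay below the pseudocount of 1. With a pseudocount of 0.1 the ratio was 1.28 at 4 h and 1.92 at 8 h, both above these intervals. An antisense gene, *C130013H08Rik*, shares 984 bases of the *Prmt6* exons, and at most 9 counts were assigned to it in any library.

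*Prmt6* was the member called higher at 4 h and at 8 h, 1 of 7 each time. Among all compared genes 25.6% were higher and 7.29% lower in R255K cells at 4 h, and 36.6% were higher and 8.20% lower at 8 h, so 1 of 7 is not above the background. By the difference of the 0 to 8 h changes, 1 member was higher (*Prmt6*) where 34.3% of genes were, and 1 was lower (*Prmt1*) where 7.44% were. The all-gene median of this difference was 0.27 and the members' median −0.13, and *Prmt6* was the only 1 of the 7 above the all-gene median. Library scaling moved the all-gene median ratio at 8 h from 0.33 to 0.05 with TMM factors, −0.05 with DESeq2 size factors and 0.51 in TPM. Relative to that median, the 8 h ratio of *Prmt6* was 1.00, 1.04, 1.04 and 1.27 under the 4 scalings in the same order. It was 1.43 relative to the median with a pseudocount of 0.1.

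*Prmt1*, the enzyme that methylates METTL14, was at 150, 209 and 270 FPKM over the WT time course and at 189, 192 and 215 FPKM in R255K cells. R255K cells had the higher level at 0 h and WT cells the higher level at 4 and 8 h. The log2 change from 0 to 8 h was 0.85 in WT and 0.19 in R255K cells, a difference of −0.66 (−0.71 to −0.60), which was −0.53 with the GC trend subtracted and −0.46 in TPM, both short of 1.5-fold. The log2 ratio of R255K to WT passed from 0.33 at 0 h to −0.12 (−0.16 to −0.08) at 4 h and −0.32 (−0.36 to −0.29) at 8 h, or −0.76 and −0.93 at 8 h with TMM and DESeq2 scaling, both past 1.5-fold. Relative to the all-gene median the 8 h ratio was −0.65, and between −0.87 and −0.73 with TMM, DESeq2 and TPM scaling.

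*Prmt7*, the type III enzyme, moved much like *Prmt1*. Its level was 40.6, 57.9 and 72.8 FPKM in WT cells and 41.8, 46.9 and 55.3 FPKM in R255K cells at 0, 4 and 8 h. The genotypes had overlapping intervals at 0 h, and WT cells had the higher level at both later times. The log2 ratio was −0.30 (−0.35 to −0.24) at 4 h and −0.39 (−0.44 to −0.34) at 8 h. The 0 to 8 h changes, 0.83 in WT and 0.40 in R255K cells, differed by −0.43 (−0.51 to −0.35), which was short of 1.5-fold and became −0.33 with the GC trend subtracted. Both values passed 1.5-fold with TMM and DESeq2 scaling, which put the 8 h ratio at −0.82 and −0.99 and the difference of changes at −0.82 and −0.92.

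*Prmt5*, which forms symmetric dimethylarginine, was at 63.0, 75.5 and 73.8 FPKM in WT cells and at 84.0, 83.1 and 90.1 FPKM in R255K cells. Every R255K level was above every WT level when libraries were scaled by their summed counts. Its log2 ratio was 0.14 (0.08 to 0.19) at 4 h and 0.28 (0.23 to 0.34) at 8 h, but it turned to −0.08 and −0.14 with TMM factors and to −0.13 and −0.31 with DESeq2 size factors. Only the higher level at 0 h kept its direction under every scaling.

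*Carm1* encodes a type I enzyme and coactivator of nuclear receptors that methylates histone H3. Its level was 36.7, 49.7 and 50 FPKM in WT cells and 40.3, 42.4 and 49.8 FPKM in R255K cells. Scaled by summed counts, the log2 ratio was −0.22 (−0.29 to −0.16) at 4 h and −0.01 (−0.07 to 0.06) at 8 h. The 8 h ratio depended on the scaling, at −0.43 with TMM factors, −0.60 (past 1.5-fold) with DESeq2 size factors and 0.09 in TPM. Its exons share 1025 bases with *Yipf2* on the other strand, which had 106 to 143 counts per library against 3062 to 4548 for *Carm1*.

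*Prmt3*, a cytosolic type I enzyme that methylates the ribosomal protein RPS2, gave nearly the same values in both genotypes when scaled by summed counts. Its level was 14.2, 18.7 and 19.2 FPKM in WT cells and 14.1, 19 and 18.9 FPKM in R255K cells. The log2 ratio was 0.02 (−0.06 to 0.11) at 4 h and −0.03 (−0.12 to 0.06) at 8 h, and the difference of the 0 to 8 h changes was −0.01 (−0.15 to 0.12). These intervals lie within 1.5-fold, but they cover counting error of single libraries only and do not bound the difference between the genotypes. TMM and DESeq2 scaling put the 8 h ratio at −0.44 and −0.60, the latter past 1.5-fold. Relative to the all-gene median the 8 h ratio was −0.35, and between −0.55 and −0.43 with TMM, DESeq2 and TPM scaling.

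*Prmt2*, a weak type I enzyme and the least abundant member at 0 h, was at 3.75, 3.42 and 2.29 FPKM in WT cells and at 5.62, 4.29 and 3.90 FPKM in R255K cells. It stood on 107 to 297 counts per library. Scaled by summed counts, R255K levels were above every WT level, with a log2 ratio of 0.26 (0.04 to 0.48) at 4 h and 0.57 (0.34 to 0.81) at 8 h. With TMM and DESeq2 scaling the ratio was 0.08 and 0.05 at 4 h, and 0.26 and 0.13 at 8 h. The 8 h ratio was 0.77 in TPM and 0.74 with a pseudocount of 0.1, both past 1.5-fold. The difference of the 0 to 8 h changes, 0.10 (−0.22 to 0.41), included 0.

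**Figure D2:**
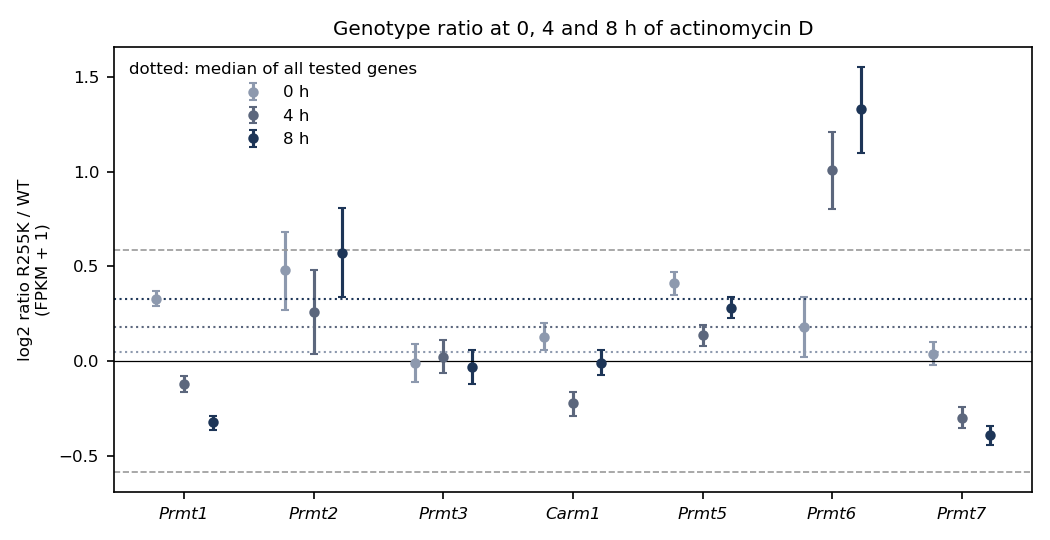
Log2 ratio of R255K to WT, from FPKM + 1 (vertical axis), for each member (horizontal axis) at 0, 4 and 8 h, light to dark. Bars are 95% counting intervals, dotted lines the median of all 11869 genes at each time and dashed lines 1.5-fold. *Prmt6* at 4 and 8 h lies above the upper dashed line at 1.01 and 1.33. *Prmt1* goes from 0.33 to −0.32, and *Prmt7* from 0.04, with an interval that includes 0, to −0.39.

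**Figure D3:**
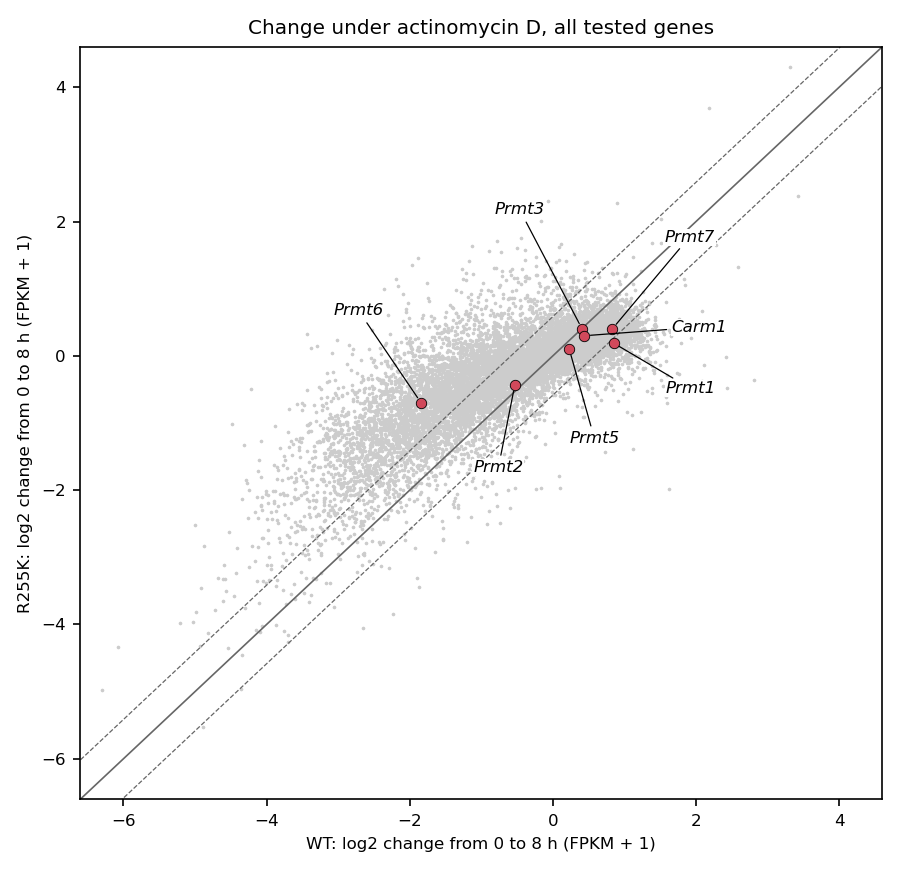
Log2 change from 0 to 8 h in R255K cells (vertical axis) against that in WT cells (horizontal axis), from FPKM + 1, for all 11869 genes (grey) and the 7 members (red). The solid line marks equal change and the dashed lines a difference of 1.5-fold. *Prmt6*, at −1.84 in WT and −0.70 in R255K cells, lies above the upper dashed line, and *Prmt1*, at 0.85 and 0.19, below the lower one.

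A half-life, from the mean of the decay rates over 4 and 8 h, was computed where the level fell, and its ratio between genotypes only where it fell in both, as for 46.4% of the compared genes and 2 of the 7 members. *Prmt6* had a half-life of 2.78 h (2.46 to 3.19) in WT and 9.30 h (7.17 to 13.3) in R255K cells, a ratio of 3.35 (2.42 to 4.64). The ratio lay between 3.10 and 3.50 with other scalings or a single time. *Prmt2* had 16.3 h (9.16 to 74.0) in WT against 12.3 h (8.30 to 23.7) in R255K cells. The interval of its ratio, 0.754 (0.302 to 1.89), included 1. The library scaling moved this ratio widely, from 0.0678 with TMM factors to 1.09 in TPM. Thus 1 of 2 members had a ratio over 1.5, where 68.8% of the 5504 genes with such a ratio did. *Prmt1*, *Prmt3*, *Carm1*, *Prmt5* and *Prmt7* had rates below 0 in both genotypes, so no half-life was computed for them.

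On the m6A side, the exons of *Carm1*, *Prmt5*, *Prmt6* and *Prmt7* held a WT peak, 4 of 7 genes, against 57.4% of the compared genes. In R255K cells 4 of 7 genes held a peak, *Prmt1*, *Carm1*, *Prmt5* and *Prmt6*, against 43.6%. *Prmt2* and *Prmt3* had none in either list. Fold enrichment below is that of IP over local background as the authors' peak caller gave it, with its −log10 q value. Each genotype has a single list, without values for its replicates, and the depth behind it is unknown.

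*Prmt6* (chr3:110246109-110250998, minus strand, 2 exons) carried the highest enrichment of the members. Its WT peak covered 1707 bases, chr3:110249494-110251200, with 11.8-fold enrichment (−log10 q 133), and its summit lay in the coding sequence of exon 1 at position −65 relative to the stop codon. In R255K cells this stretch held 2 peaks. The one at the stop codon, chr3:110249574-110250148, had 12.2-fold enrichment (−log10 q 135), with its summit at position −27. The one toward the start of the gene, chr3:110250420-110251333, had 4.58-fold enrichment (−log10 q 29.8), with its summit at position −1012. All 3 peaks also touched an exon of the antisense gene *C130013H08Rik*. The WT peak held 18 GGAC motifs, and the R255K peaks held 7 and 11. The WT peak and the second R255K peak reach past the 5′ end of the gene. Some of their motifs may thus lie outside the *Prmt6* transcript. The GGAC printed for the first R255K peak is followed directly by the stop codon.

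*Prmt5* (chr14:54507187-54517525, minus strand, 17 exons) had 1 peak in its last exon in both genotypes. In WT cells it spanned chr14:54507182-54507754 with 4.54-fold enrichment (−log10 q 54.0). In R255K cells it spanned chr14:54507214-54507749 with 2.54-fold enrichment (−log10 q 16.1). The summits lay in the 3′UTR, 174 and 118 bases past the stop codon, and the same GGAC, printed above, was nearest to both, 2 bases from the WT summit and 58 from the R255K summit.

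*Prmt7* (chr8:106210936-106252794, plus strand, 18 exons) had a peak in WT cells alone, chr8:106251653-106252098, with 6.77-fold enrichment (−log10 q 33.0). Its summit was in the 3′UTR in exon 18, 169 bases past the stop codon. The peak held 4 GGAC motifs, none within 100 bases of the summit, and the nearest, printed above, was 104 bases away. The wider motifs AGAC and AAAC were absent from that window as well.

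*Carm1* (chr9:21546894-21592623, plus strand, 16 exons) had a broad and shallow peak past the stop codon in both genotypes. In WT cells it spanned chr9:21588123-21588842 with 3.21-fold enrichment (−log10 q 46.6), its summit 302 bases past the stop codon. In R255K cells it spanned chr9:21588169-21588556 with 3.01-fold enrichment (−log10 q 28.5), its summit 161 bases past the stop codon. The R255K peak was 388 bases wide and the WT peak 720, and the WT peak also touched an exon of *Yipf2* on the other strand. A further WT peak at the 3′ end of the gene, chr9:21592527-21592753, with 2.90-fold enrichment (−log10 q 7.41), was not overlapped in R255K cells. Its summit lay outside the gene, and it touched exons of *Timm29* and *Yipf2* too, so it cannot be assigned to *Carm1* alone.

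*Prmt1* (chr7:44975989-44986568, minus strand, 11 exons) had no WT peak. In R255K cells a peak of 200 bases, chr7:44986117-44986316, reached the edge of its first exon with 3.23-fold enrichment (−log10 q 9.24). Its summit lay in an intron.

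Of the 5 WT peaks on member exons, 2 had no overlapping R255K peak, those of *Prmt7* and of the 3′ end of *Carm1*, or 40% (95% Wilson interval 11.8 to 76.9). Among all 13870 exonic WT peaks the share was 47.9%. Of the 5 R255K peaks on member exons 1 had no WT overlap, that of *Prmt1*, where 13.1% of all exonic R255K peaks had none. These counts are near the background. For kept peaks the R255K fold enrichment divided by the WT value was 0.560 at *Prmt5*, 0.938 at *Carm1* and 1.03 at *Prmt6*, where the median of 7231 kept exonic peaks was 0.797 (quartiles 0.598 and 1.05). *Prmt5* thus lay under the lower quartile of the ratio, and *Carm1* and *Prmt6* lay in its upper part. These ratios have no replicate error. Where several R255K peaks overlapped a WT peak the highest was taken, as at *Prmt6*, whose other R255K peak had 4.58-fold enrichment.

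**Figure D4:**
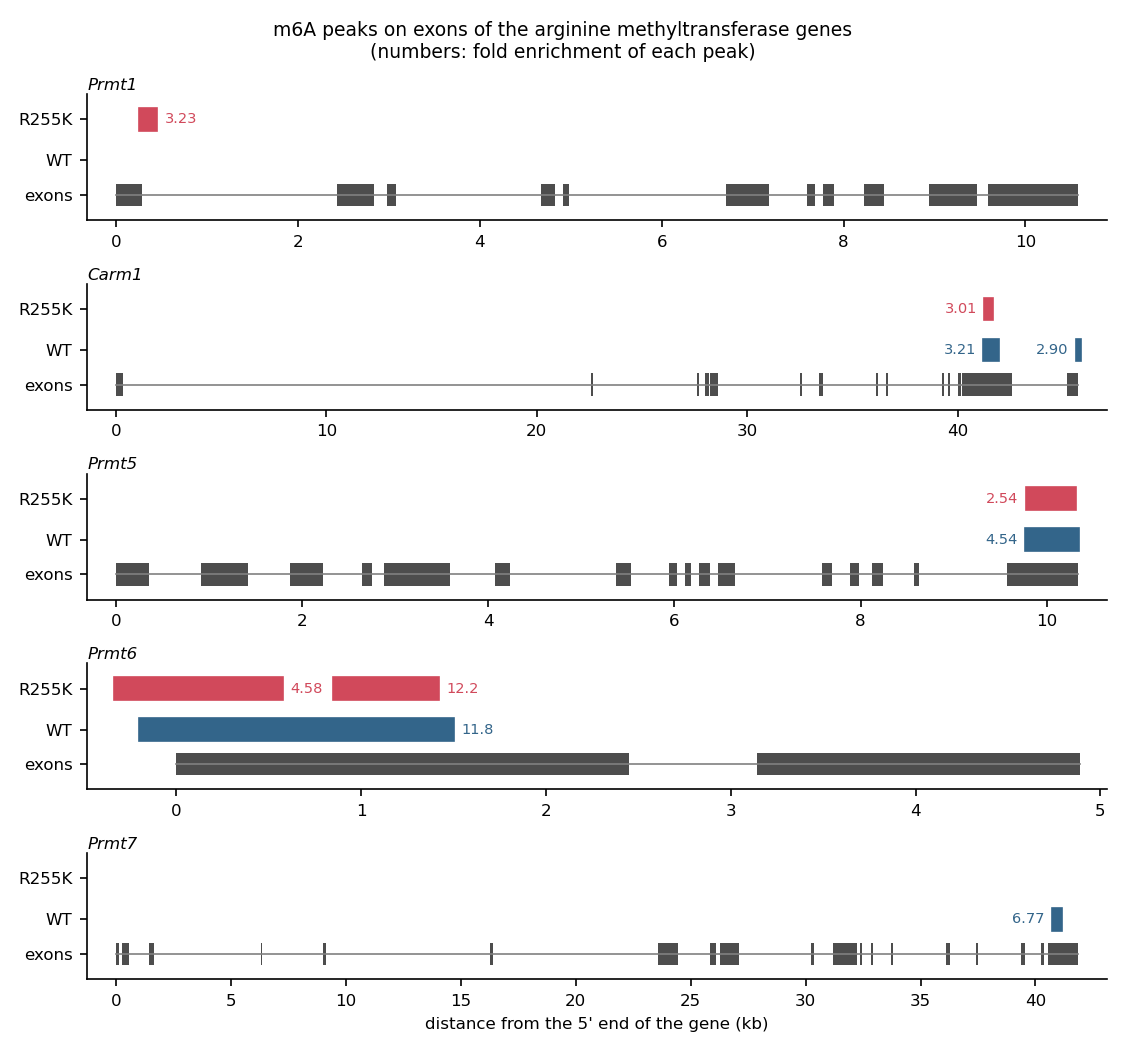
Exons (grey) and m6A peaks of WT (blue) and R255K cells (red) along the 5 member genes that have one, against the distance from the 5′ end of the gene in kb, each gene on its own scale. The number beside a peak is its fold enrichment. *Prmt6* has 1 WT peak at 11.8 and 2 R255K peaks at 4.58 and 12.2, *Prmt7* has a WT peak at 6.77 alone, and the peaks of *Prmt5* and *Carm1* lie toward the 3′ end.

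Set beside the decay data, the gene with the strongest peak, *Prmt6*, was the one that fell fastest in WT cells. Its WT peak had 11.8-fold enrichment, and the 2 R255K peaks in that stretch had 12.2-fold, at the stop codon, and 4.58-fold. The *Prmt6* transcript lasted longer in R255K cells. *Prmt7* lost its WT peak and did not fall under actinomycin D in either genotype. Its 0 to 8 h changes differed by −0.43 between the genotypes. *Prmt5*, whose kept peak had an R255K to WT enrichment ratio of 0.560, differed by −0.13. *Carm1*, with a ratio of 0.938 for its kept peak, differed by −0.14. *Prmt1*, with an R255K peak alone, differed by −0.66. *Prmt2* and *Prmt3*, with no peak, differed by 0.10 and −0.01 in their 0 to 8 h changes. The 7 genes are too few for a relation between the readouts, and none was computed.

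Within 100 bases of the summit, GGAC occurred in 79.0% of 13089 exonic WT peaks and 82.4% of 8335 exonic R255K peaks, searched on the transcript strand. AGAC and AAAC, searched in the same way, occurred in 68.8% and 51.3% of the WT peaks. In exons, *Prmt2* held 7.69 GGAC per kb and *Prmt1* 7.01, more than 96.0% and 93.6% of compared genes, and neither had a WT peak. *Prmt6* held 5.24, *Prmt7* 4.90, *Carm1* 4.53, *Prmt5* 4.30 and *Prmt3* 3 per kb, with a median of 3.86 over 11845 genes. The order by motif density was thus not the order by peak enrichment.

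By the pattern over the 6 libraries, the 5 genes nearest to *Prmt1* were *Tango2*, *Gm13127*, *Hmga1*, *Zmat2* and *Chchd2*. Likeness was the root mean square difference of centred log2(FPKM + 1), which was 0.022 for *Tango2* and 0.033 for *Chchd2*. In WT cells at 0 h *Tango2* and *Gm13127* were at only 1.51 and 1.98 FPKM, against 150 FPKM for *Prmt1*. *Hmga1*, *Zmat2* and *Chchd2* were at 178, 64.9 and 178 FPKM. A pseudocount of 1 dampens log2 changes at levels near it, so the first 2 places depend on it. Likeness with a smaller pseudocount was not computed. Of the other members *Prmt7* came nearest, at rank 408 of the 11869 genes with a difference of 0.108, and *Prmt6* was farthest, at rank 9771 with 0.933.

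The other genes of the pathway were 19 listed by role, of which 17 were compared (*Prmt8* and *Padi4* were too low). At 0 h 5 were higher in R255K cells by 1.5-fold and 2 lower, beside 17.0% and 15.7% of all compared genes. At 4 h 4 were higher and 0 lower, beside 25.6% and 7.29%, and at 8 h 6 were higher and 0 lower, beside 36.6% and 8.20%. By the 0 to 8 h change 7 were higher and 2 lower, beside 34.3% and 7.44%. *Btg1*, 1 of these 7 at 0.71, was at 0.233 FPKM in WT and 0.141 FPKM in R255K cells at 8 h, below the pseudocount of 1. Its half-life ratio of R255K to WT was 0.879 (0.748 to 1.03), so its call is not secure. Their median log2 ratio at 0 h was 0.32, against 0.05 for all compared genes.

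Among other arginine methyltransferases, *Prmt9*, a type II enzyme that methylates the splicing factor SF3B2, was at 6.24, 4.84 and 2.92 FPKM in WT cells and at 12.7, 14 and 13.3 FPKM in R255K cells. All 3 R255K levels were above all WT levels. The log2 ratio was 0.92 (0.79 to 1.04) at 0 h and 1.87 (1.71 to 2.02) at 8 h. It kept a coding-sequence peak, with a fold enrichment of 12.8 in WT and 9.06 in R255K cells. *Ndufaf7* and *Mettl23* had ratios of 0.40 and 0.54 at 0 h.

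Of the 4 partners of PRMT5, 1 was past 1.5-fold at 0 h. Its obligate partner *Wdr77* had a log2 ratio of 0.31 (0.23 to 0.39) and the adaptors *Clns1a* and *Coprs* had 0.28 (0.22 to 0.34) and 0.51 (0.40 to 0.62). The adaptor *Riok1*, the one past 1.5-fold, was lower in R255K cells, at −0.70 (−0.81 to −0.58), or −0.32 with the GC trend subtracted. The partners of PRMT1 went opposite ways at 0 h, with *Btg1* at −0.83 (−0.98 to −0.67) and *Btg2* at 0.64 (0.45 to 0.83).

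Of the 4 readers of methylarginine, *Smn1* was past 1.5-fold at 0 h, with a log2 ratio of 0.66 (0.56 to 0.77). *Snd1* was at 0.32, *Smndc1* at 0.15 and *Tdrd3* at −0.52 (−0.69 to −0.34), which became 0.02 with the GC trend subtracted. By the difference of the 0 to 8 h changes *Tdrd3* and the splicing factor *Smndc1* were both at 1.16, and *Smn1* was at −0.70 (−0.86 to −0.54). *Tdrd3* and *Smndc1* have AT-rich exons, and the same correction took this difference to 0.57 and 0.64.

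For the methyl donor, *Mat2a*, the catalytic subunit of S-adenosylmethionine synthetase, was at 0.28 (0.24 to 0.32) at 0 h, and *Ahcy*, which clears S-adenosylhomocysteine, at 0.72 (0.65 to 0.79). *Mat2b*, the regulatory subunit, had a difference of the 0 to 8 h changes of 0.83 (0.62 to 1.04), and *Ahcy* one of −0.82 (−0.90 to −0.73). *Jmjd6*, a nuclear oxygenase linked to methylarginine, was higher in R255K cells by a log2 ratio of 1.47 (1.38 to 1.56) at 0 h and 2.57 (2.39 to 2.75) at 8 h. *Jmjd6*, *Mat2b* and *Mettl23* lie on chromosome 11, whose 984 compared genes had a median log2 ratio of 0.53 at 0 h against 0.05 for all genes, and the part of this shift in their values was not tested.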

How the data were processed

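Before deposit the authors filtered out rRNA reads with Bowtie2 2.2.6, mapped those left by HISAT2 (build mm10) and ran MACS2 on IP against input. SAMtools 0.1.09 and Picard 2.16.0 are also in the submitters' processing notes. The deposited counts are whole numbers per gene without normalization. The counting tool and its strand setting are not given in the sources used here, and the library kit was not described as strand-specific, so sense and antisense reads cannot be told apart. The deposited peak lists give, from the authors' MACS2 runs, a fold enrichment (ratio) at the summit, a −log10 q, a score, the summit offset (other values) and a −log10 p that was not used.

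FPKM was computed from the deposited counts, the exon lengths in the tables and summed counts of 13812160 to 18813640 per library. Genes needed a mean of at least 1 FPKM at 0 h, log2 values used a pseudocount of 1, and counts under 3 were set to 3 for half-lives. Intervals (95%) came from Poisson counting error, exact for levels and by the delta method for ratios. Peaks were joined at an overlap of 1 bp with bedtools 2.31.1 and placed on the exons of the tables and GENCODE. Alternatives were TMM (edgeR 4.0.16), DESeq2 1.42.0 size factors, TPM, a pseudocount of 0.1, no filter, and subtraction of the trend on exon GC (lowess span 0.3, statsmodels 0.14.6). Python 3.11.15 and R 4.3.3 were used, and the computations were tested on simulated data. With 1 library per genotype and time no test was made. A model of genotype plus time, which takes the genotype effect as equal at all times, was not fitted.

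The genes named are the 7 members, *Mettl14*, the genes of the pathway list that were past 1.5-fold at 0 h or in the 0 to 8 h difference or that are direct partners, and the 5 genes nearest to *Prmt1*. *Snd1*, *Mat2a*, *Ndufaf7* and *Mettl23* were named to complete their groups after their values were seen. The members and the lists were chosen with earlier results of these data known.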

Additional observations from a re-analysis of the deposited data

Results flagged for a closer look

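In 3 genes of the pathway list the level went one way in WT cells and the opposite way in R255K cells at both 4 and 8 h. The difference between the genotypes was not tested in any of them, since each genotype had 1 library per time. For *Prmt9* the R255K change from 0 to 8 h minus the WT change was 0.95 on the log2 scale, from −0.89 in WT and 0.06 (−0.04 to 0.17) in R255K cells. For *Coprs* it was −0.35, from 0.07 (−0.05 to 0.19) in WT and −0.28 in R255K cells. For *Smn1* it was −0.70, from 0.10 (−0.02 to 0.22) in WT and −0.60 in R255K cells. In each gene the smaller of both changes had an interval that included 0. In TPM the WT change of *Coprs* was −0.18 and that of *Smn1* −0.15, so the opposite directions of these genes depend on the scaling.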

How the results depend on the processing

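No paired analysis was possible because the IP and input libraries, which share replicate numbers, were deposited as 1 peak list per genotype, and each decay library stands alone. No library was left out, since each is the only one of its genotype and time. No member was 1.5-fold apart at 0 h, and 1 was at 4 h, under every setting tried. At 8 h the count of 1 became 3 with TMM factors, 5 with DESeq2 size factors, 2 in TPM and 2 with a pseudocount of 0.1, and it stayed at 1 with the GC trend subtracted or no filter. TMM and DESeq2 scaling added 2 and 4 members on the lower side, which goes with their shift of the all-gene median. For the difference of the 0 to 8 h changes the count of 2 became 3 with TMM factors (1 higher, 2 lower), 5 with DESeq2 size factors (1 higher, 4 lower), 1 in TPM, 1 with the GC trend subtracted, 1 from 0 to 4 h and 0 from 4 to 8 h. The share of all compared genes past 1.5-fold was computed only with scaling by summed counts and a pseudocount of 1. Member counts under the other settings thus have no background beside them and give no result about the members. Of the 5 WT peaks, 2 lacked an R255K overlap. This was 1 of 4 where the summit had to lie in an exon, 1 of 3 at a fold enrichment of at least 4, and 3 of 5 where an overlap had to span 50% of a WT peak. The cause of these differences was not tested. Of 140 values of single members under other settings, 66 moved by less than their counting interval, 74 by more, and 0 called values changed sign. The called values were those of *Prmt6* at 4 h, at 8 h and in the 0 to 8 h difference, and of *Prmt1* in that difference. A change of sign was counted only for these. Some values short of 1.5-fold did change sign, such as the 8 h ratio of *Prmt5*, from 0.28 to −0.14 with TMM factors. The difference of *Prmt6* ranged from 0.91 to 1.71 and that of *Prmt1* from −1.15 to −0.46. *Prmt2* and *Prmt6* stood on few counts, which limits their precision.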
